A study of Mus musculus with 18 samples.

Results

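Numbered zinc finger protein genes are the mouse genes whose symbol is Zfp followed only by a number. The count table held 373 of them. Of these, 217 had a mean of at least 3 CPM (a gene's counts per 1000000 counts of the library) over the 18 libraries, and these 217, of 56953 gene IDs in all, are described here. Zfp36, which encodes the mRNA-destabilising protein tristetraprolin and carries fingers of another type, was left out. The members were chosen by their symbol and by this measured mean level, which is therefore a description only: it ran from 3.2 to 358 CPM with a median of 12.3 CPM. Zfp707 at 3.22 CPM and Zfp128 at 3.2 CPM lay just inside the limit, and Zfp11 at 2.97 CPM and Zfp661 at 2.79 CPM just outside it. Of the 156 numbered Zfp genes left out, 28 had no count in any library. The 217 members passed the filter on low counts and were among the 13068 genes tested. Because the limit was set on the mean over 18 libraries, a gene could pass through some of its groups: 49 members averaged under 3 CPM in T169A LPS libraries and 50 in B6 LPS libraries, 11 in T169A LPS/5z7 and 9 in B6 LPS/5z7 libraries, and 2 in the unstimulated libraries of each genotype.

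Most of these genes encode C2H2 zinc finger proteins, in which each finger folds around a zinc ion and strings of fingers read DNA sequence. Many also carry a KRAB box, which recruits the corepressor TRIM28 (KAP1) and through it the histone methyltransferase SETDB1 and HP1 proteins, a route known for silencing endogenous retroviruses and other repeats. KRAB zinc finger genes stand in clusters made by gene duplication, and zinc finger mRNAs are known as a short-lived class in other cells. Neither repression nor mRNA half-life was measured here.

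All samples were bone marrow-derived macrophages, grown for 7 days in 30% L929 supernatant, which supplies M-CSF, with serum (FBS) at 20%. T169A cells came from mice with that amino acid change in RIPK1, a kinase of the cell death and inflammation pathways, in the whole animal, and B6 cells from C57BL/6J mice. Each genotype received lipopolysaccharide (LPS, which TLR4 senses) together with 5z7 for 2 hours, LPS alone for 2 hours, or no stimulus, with 3 libraries in each of the 6 groups. The name 5z7 is not explained in the labels; it is commonly short for the TAK1 inhibitor (5Z)-7-oxozeaenol. No group had 5z7 without LPS, and a coding change in Ripk1 cannot be read from gene counts. Sample titles carry replicate letters, A to C for B6 and D to F for T169A cells, each letter over all treatments of its genotype. The count columns carry running numbers and no letter, so libraries were treated as unpaired. Whether replicate libraries stem from different mice is not stated, so p-values measure the spread between these libraries, which may be technical.

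Library totals ran from 14645076 to 30425934 counts, and the members took 0.469% of all counts, with a median of 233 counts per member and library. The 8 macrophage markers examined, such as Lyz2 and Csf1r, were above 10 CPM in every library. Markers of B cells, erythroid cells and mast cells summed to at most 0.131 CPM in every library, and those of neutrophils to between 7.36 and 15.2 CPM. The sums were 2.66 to 11.5 CPM for fibroblast, 2.19 to 6.49 CPM for T cell and 2.11 to 5.41 CPM for endothelial markers. Dendritic cell markers moved with the stimulus, with 1.17 to 2.99 CPM in libraries with LPS or LPS/5z7 and 0.206 to 0.546 CPM in unstimulated libraries, and their part in the results was not tested. B6 unstimulated library 7 stood apart: it differed from its 2 replicates by 87.9 and 109.9 times the variance of counting alone, against 3.03 to 56.3 times for the other replicate pairs. In each other group 1 library was also farther from its 2 replicates than these were from each other, namely libraries 8 to 12, by 8.34 to 56.3 times that variance. The libraries that stood apart were 7 to 9 in B6 and 10 to 12 in T169A cells, which follow one another in number. Whether they share a replicate letter is not given. In library 7 the members summed to 3778 CPM after scaling, against 4831 CPM in B6 unstimulated library 1 and 5031 CPM in library 4. From here on, levels of single genes are CPM after TMM scaling, and a gene is called where edgeR's quasi-likelihood test gives a Benjamini-Hochberg adjusted p under 0.05 over all genes tested.

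The members differed in what their coding sequence holds. In translated GENCODE M21 coding sequences, 91 members matched a strict KRAB pattern and had a median of 11 C2H2 fingers. Another 91 had at least 5 fingers and no match to that pattern, and 30 had 1 to 4 fingers. The remaining 5 were Zfp703, Zfp330, Zfp839 and Zfp503, with no finger of the pattern used, and Zfp469, which this annotation lists without a coding sequence. A wider KRAB pattern, added after the data were seen, matched 113 members. The median level was 8.05 CPM for KRAB members, 14.7 CPM for members with 5 or more fingers and no KRAB match, and 21 CPM for those with 1 to 4 fingers. Chromosome 7 held 50 members and chromosome 17 held 31, and 102 members (47%) stood in clusters of at least 3 numbered Zfp genes with gaps of at most 200 kb.

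LPS lowered most numbered Zfp genes within 2 hours. In T169A cells 127 (58.5%) of 217 members were lower with LPS than unstimulated and 29 (13.4%) were higher, where 31.5% of all genes tested were lower and 30.3% higher, and 30.1% and 34.5% of the 9896 tested genes with at least 3 CPM. In B6 cells 129 (59.4%) were lower and 31 (14.3%) higher, where 33.5% of all genes tested were lower and 29.6% higher, and 31.7% and 33.4% of the 9896 tested genes with at least 3 CPM. The members' median log2 fold change was -0.59 in T169A and -0.54 in B6 cells, and that of all genes tested -0.03 in T169A and -0.07 in B6 cells. Without B6 unstimulated library 7, 134 members were lower and 29 higher in B6 cells. After TMM scaling the members summed to 4087 to 4830 CPM in T169A LPS libraries and 4406 to 4681 CPM in T169A unstimulated libraries. In B6 cells the sums were 4340 to 5021 CPM with LPS and 3778 to 5031 CPM unstimulated, so the sums overlapped in both genotypes. In bulk RNA, fewer cells of a type and less RNA per cell cannot be told apart.

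**Figure D1:**
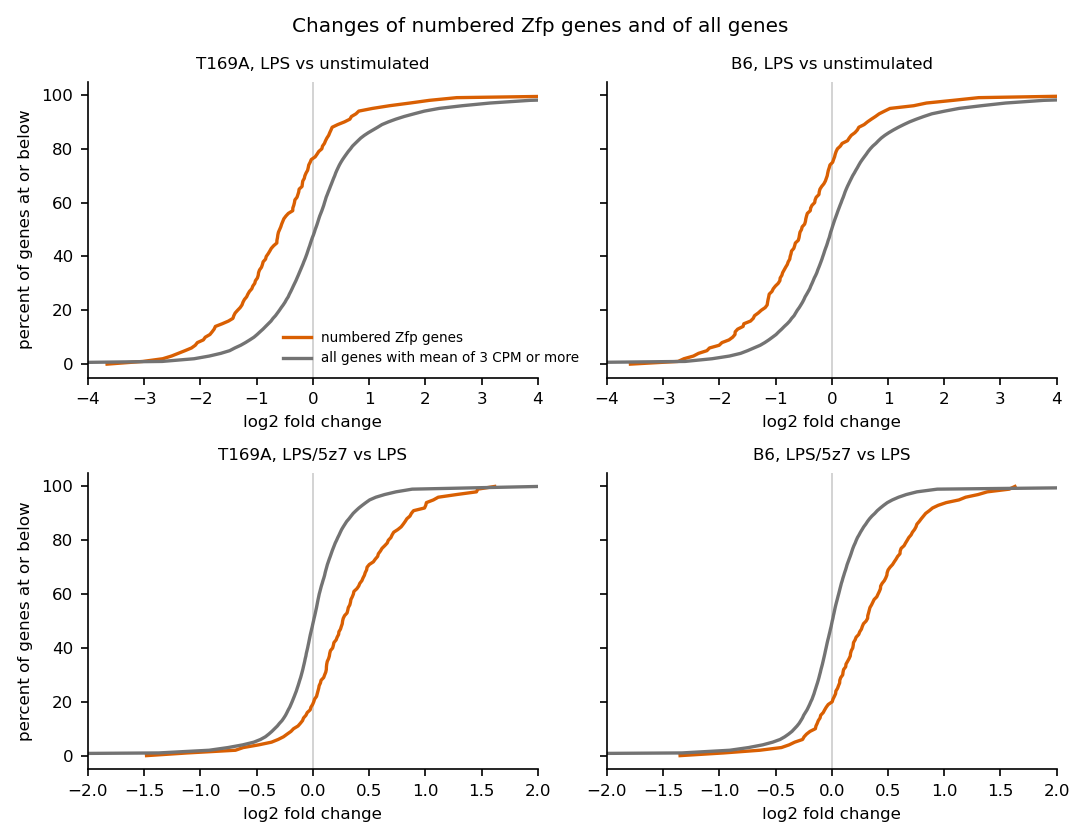
Cumulative distribution of log2 fold changes (horizontal) as the percent of genes at or below each value (vertical), for the 217 numbered Zfp genes and the 9896 tested genes with a mean of at least 3 CPM, in T169A and B6 cells. The curve of the numbered Zfp genes (orange) lies left of the other (grey) over most of its course for LPS against unstimulated, with medians of -0.59 in T169A and -0.54 in B6 cells, and right of it for LPS/5z7 against LPS, with medians of 0.26 in T169A and 0.31 in B6 cells.

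The shares differed with the level of the genes. Near the limit of 3 CPM, members and other genes alike could pass it through unstimulated libraries in which they were high. Among the 97 members with a mean under 10 CPM, 74.2% were lower with LPS in T169A and 76.3% in B6 cells, while 47.2% in T169A and 50.7% in B6 cells of all tested genes with 3 to 10 CPM were lower. Among the 120 members at 10 CPM or more, 45.8% were lower in T169A and 45.8% in B6 cells, while 25.8% in T169A and 26.9% in B6 cells of all tested genes at that level were lower. Under 10 CPM, 6.19% of the members were higher in T169A and 4.12% in B6 cells, beside 17.2% and 16.7% of all tested genes of that level. At 10 CPM or more, 19.2% of the members were higher in T169A and 22.5% in B6 cells, beside 38.8% and 37.6% of all tested genes there, so higher calls were more frequent at higher levels in members and in all genes. The scaling bears on the split. With library size alone, the median of all genes tested was -0.61 in T169A and -0.66 in B6 cells. Of the members, 183 were then lower and 13 higher in T169A, and 182 were lower and 14 higher in B6 cells. Of all genes tested, 62% were lower and 14.8% higher in T169A, and 64.9% lower and 15.3% higher in B6 cells. The members' median minus that of all genes was -0.56 in T169A and -0.47 in B6 cells with either scaling.

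Zfp395 fell furthest of the 217 members in both genotypes. Zfp395 had 3.51, 4.6 and 3.04 CPM in T169A LPS libraries, against 46, 48.3 and 46.3 CPM in T169A unstimulated libraries. In B6 cells Zfp395 had 3.6, 3.62 and 3.26 CPM with LPS, against 43.7, 40.4 and 42.6 CPM unstimulated. No LPS library came near an unstimulated one, and the log2 fold change was -3.66 ± 0.14 in T169A and -3.58 ± 0.14 in B6 cells (SE; edgeR adjusted p = 4.86e-13 and 5.89e-13). Zfp652, whose human counterpart is known to repress transcription with CBFA2T3, had 15.1, 15.6 and 12.4 CPM in T169A LPS libraries, against 86.4, 88.9 and 77.7 CPM in T169A unstimulated libraries. In B6 cells Zfp652 had 15.6, 13 and 11.1 CPM with LPS, against 89.5, 87.8 and 49.5 CPM unstimulated. The lowest unstimulated value was that of library 7, and the groups still did not overlap. Its log2 fold change was -2.55 ± 0.18 in T169A and -2.5 ± 0.18 in B6 cells (edgeR adjusted p = 1.82e-09 and 2.26e-09). Exons of Zfp652 overlap those of other genes on both strands, so its counts are less certain. Exons of other genes also overlap those of Zfp703, Zfp106, Zfp710, Zfp143, Zfp593, Zfp608, Zfp410 and Zfp91, named below.

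The other 6 members with the largest falls in B6 cells were Zfp41, Zfp398, Zfp101, Zfp810, Zfp707 and Zfp563. Zfp41 has 4 fingers, and the other 5 are KRAB members with 7 to 12 fingers. Zfp398 had 1.63, 1.34 and 0.776 CPM in T169A LPS libraries, against 11.4, 11.3 and 9.79 CPM in T169A unstimulated libraries. In B6 cells Zfp398 had 2.08, 1.65 and 0.544 CPM with LPS, against 12, 12.7 and 5.92 CPM unstimulated. Library 7 was the lowest of its B6 unstimulated libraries and library 8 the lowest of its B6 LPS libraries. Zfp101 had 1.1, 1.34 and 0.711 CPM in T169A LPS libraries, against 6.31, 6.4 and 7.75 CPM in T169A unstimulated libraries. In B6 cells Zfp101 had 0.84, 0.946 and 0.933 CPM with LPS, against 5.43, 7.27 and 5.06 CPM unstimulated. The groups did not overlap in either genotype. All 6 genes lay below 3 CPM in every LPS library, so they passed the limit on the mean through their other groups. A limit passed in this way favours falls with LPS, so these changes are descriptions. Log2 fold changes of the 6 genes ran from -3.06 to -2.16 in T169A and from -2.75 to -2.41 in B6 cells, each called by edgeR with an adjusted p of at most 2.93e-06.

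A minority of members rose with LPS, and Zfp811 was close to absent before. Zfp811, a KRAB member with 13 fingers, had 16.2, 14.8 and 16.6 CPM in T169A LPS libraries, against 0.206, 0.314 and 0.286 CPM in T169A unstimulated libraries. In B6 cells Zfp811 had 17, 14.2 and 18.8 CPM with LPS, against 0.204, 0.355 and 0.699 CPM unstimulated. The unstimulated libraries held 5 to 13 counts each and the LPS libraries 232 to 425. Its log2 fold change was 5.85 ± 0.24 in T169A and 5.38 ± 0.22 in B6 cells (edgeR adjusted p = 9.88e-13 and 1.34e-12), the highest of the 217 members in both genotypes. Zfp558, also a KRAB member, had 13, 11.3 and 9.12 CPM in T169A LPS libraries, against 0.742, 0.589 and 0.938 CPM in T169A unstimulated libraries. In B6 cells Zfp558 had 13, 12.5 and 9.25 CPM with LPS, against 1.88, 1.06 and 0.699 CPM unstimulated. The groups were again well apart, and its log2 fold change was 3.88 ± 0.26 in T169A and 3.24 ± 0.24 in B6 cells (edgeR adjusted p = 6.57e-10 and 2.5e-09).

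Members without a match to the strict KRAB pattern rose too, and a missing match does not show that a KRAB box is missing. Zfp263, a finger protein whose human counterpart is a DNA-binding repressor, had the highest level per length, 79.2 CPM per kb of exon, against a median of 2.53 CPM per kb over the members. Zfp263 had 527, 480.1 and 442 CPM in T169A LPS libraries, against 152, 104 and 108 CPM in T169A unstimulated libraries. In B6 cells Zfp263 had 561, 555 and 489 CPM with LPS, against 158, 192 and 107 CPM unstimulated. No LPS library overlapped an unstimulated one, and its log2 fold change was 1.99 ± 0.17 in T169A and 1.81 ± 0.17 in B6 cells (edgeR adjusted p = 2.01e-08 and 6.45e-08). Zfp131, a BTB domain protein, had 139, 126 and 118 CPM in T169A LPS libraries, against 21.9, 21.6 and 19.7 CPM in T169A unstimulated libraries. In B6 cells Zfp131 had 138, 135 and 108 CPM with LPS, against 22.7, 25.4 and 19.7 CPM unstimulated. It changed by 2.6 ± 0.12 in T169A and 2.49 ± 0.12 in B6 cells on the log2 scale (edgeR adjusted p = 3.73e-12 and 6.32e-12).

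The rise of Zfp800 was of like size, 2.36 ± 0.23 in T169A and 2.64 ± 0.23 in B6 cells, although an exon of another gene overlaps it on the opposite strand. Zfp800 had 152, 108 and 93.6 CPM in T169A LPS libraries, against 24.5, 23.2 and 21.1 CPM in T169A unstimulated libraries. In B6 cells Zfp800 had 149, 144 and 120.4 CPM with LPS, against 25.1, 28 and 13 CPM unstimulated. The lowest unstimulated value was that of library 7. Zfp281, a transcription factor known from embryonic stem cells, changed by 1.72 ± 0.16 in T169A and 1.7 ± 0.16 in B6 cells. Zfp382 changed by 2.11 ± 0.30 in T169A and 2.32 ± 0.30 in B6 cells, and Zfp945 by 1.29 ± 0.22 in T169A and 1.66 ± 0.22 in B6 cells. For these 4 genes the edgeR adjusted p was at most 6.7e-05.

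The other 4 of the 5 most abundant members by count did not share a direction. Zfp106, an RNA-binding protein, was not called, with log2 fold changes of -0.26 ± 0.18 in T169A and -0.10 ± 0.18 in B6 cells. Zfp207, a kinetochore protein, was not called either, with -0.03 ± 0.09 in T169A and 0.10 ± 0.09 in B6 cells, and its B6 value turned to -0.49 with library size alone. Zfp871, a KRAB member, was not called in T169A cells at 0.29 ± 0.27, and was called in B6 cells at 0.73 ± 0.27 (edgeR adjusted p = 0.0275), a call lost without library 2, 5 or 7. Zfp710 fell, with -1.38 ± 0.11 in T169A and -1.05 ± 0.11 in B6 cells (edgeR adjusted p = 4.91e-09 and 1.51e-07).

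**Figure D2:**
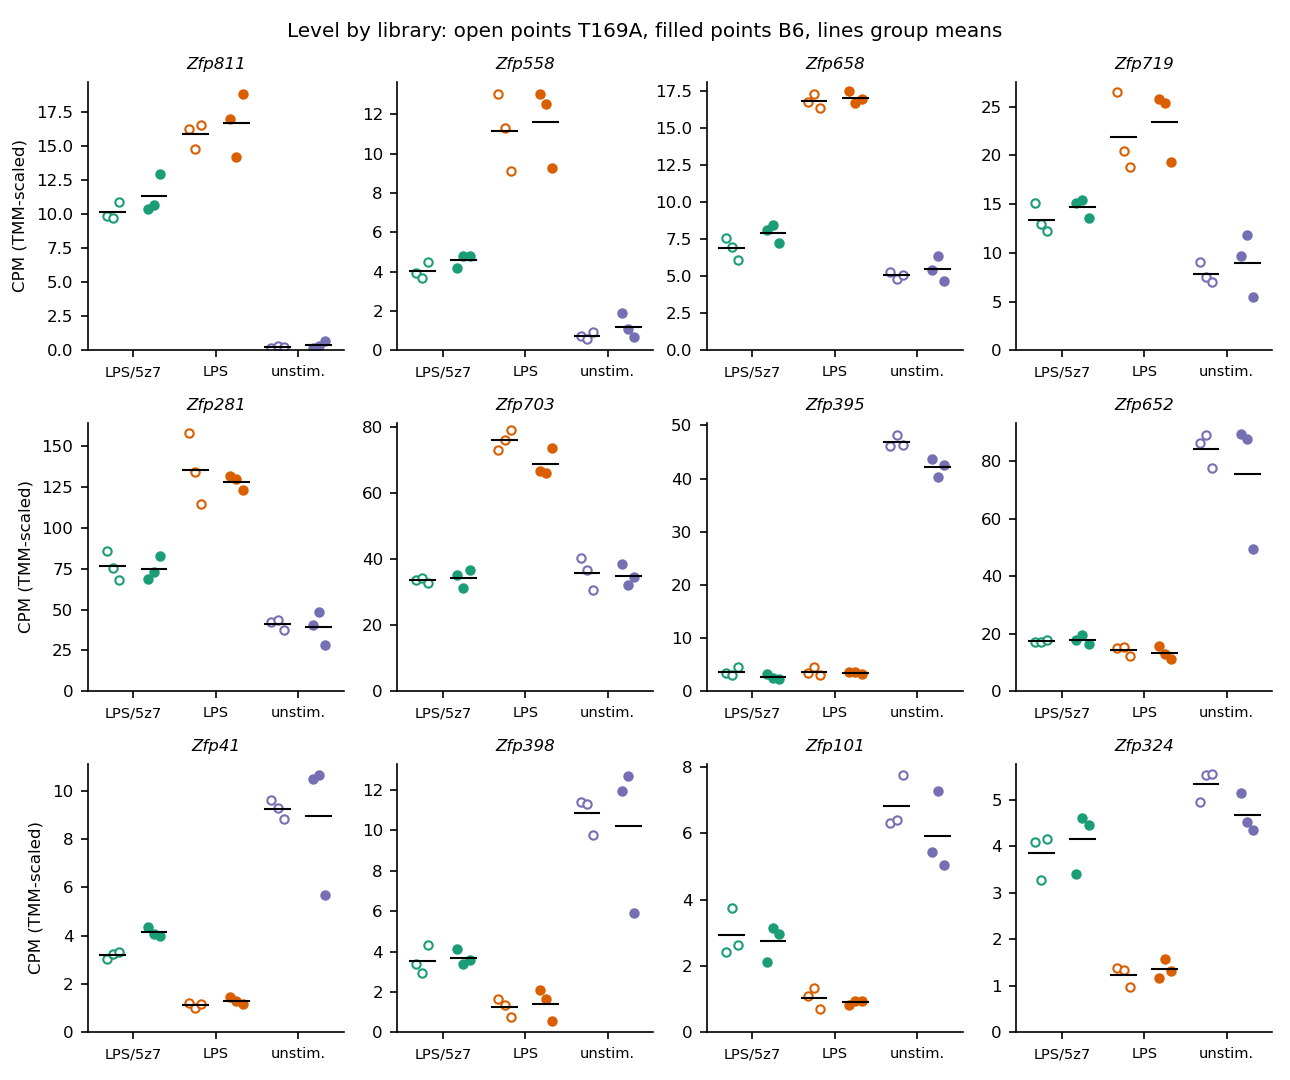
CPM after TMM scaling (vertical, from 0) of 12 numbered Zfp genes in each library of the LPS/5z7, LPS and unstimulated groups; open points are T169A, filled points B6 cells, and lines group means of 3 libraries. Zfp811, with up to 18.8 CPM, is highest with LPS, and Zfp395 is low with LPS and with LPS/5z7 beside at least 40.4 CPM in unstimulated libraries.

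Promoters are shown next for 4 members that rose with LPS and 2 that fell, so that their letters can be set beside the values. RefSeq windows (GRCm38.p6) of 250 bases before to 50 after each start were found for 179 members, with 218 windows. They were searched on both strands for an NF-kB site, an AP-1 site (TGANTCA), a cAMP response element (TGAC followed directly by GTCA), a CArG box, a GC box (GGGCGG), an ETS site (CCGGAAG) and ACTACA, and a base could belong to more than 1 motif. The lines give 150 bases before to 30 after the start, 5′ to 3′ on the gene's strand, with motif matches in capitals. Zfp811, Zfp658, Zfp719 and Zfp281 rose and Zfp398 and Zfp101 fell.
Zfp811 (chr17:32809902-32810081, minus strand): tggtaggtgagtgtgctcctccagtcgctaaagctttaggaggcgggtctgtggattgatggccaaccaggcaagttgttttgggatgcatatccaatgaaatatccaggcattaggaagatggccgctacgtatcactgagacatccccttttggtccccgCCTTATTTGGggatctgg
Zfp658 (chr7:43562220-43562399, plus strand): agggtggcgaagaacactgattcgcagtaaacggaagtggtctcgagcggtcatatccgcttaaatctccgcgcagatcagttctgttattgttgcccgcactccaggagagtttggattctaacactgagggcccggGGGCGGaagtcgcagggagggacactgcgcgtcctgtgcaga
Zfp719 (chr7:43579436-43579615, plus strand): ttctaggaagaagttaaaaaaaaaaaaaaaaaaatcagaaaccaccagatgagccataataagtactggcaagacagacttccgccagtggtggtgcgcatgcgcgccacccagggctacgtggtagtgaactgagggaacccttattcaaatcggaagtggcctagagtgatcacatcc
Zfp281 (chr1:136624751-136624930, plus strand): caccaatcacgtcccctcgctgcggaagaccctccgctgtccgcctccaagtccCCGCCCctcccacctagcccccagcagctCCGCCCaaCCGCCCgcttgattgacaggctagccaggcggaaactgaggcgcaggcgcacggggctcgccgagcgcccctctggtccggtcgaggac
Zfp398 (chr6:47835511-47835690, plus strand): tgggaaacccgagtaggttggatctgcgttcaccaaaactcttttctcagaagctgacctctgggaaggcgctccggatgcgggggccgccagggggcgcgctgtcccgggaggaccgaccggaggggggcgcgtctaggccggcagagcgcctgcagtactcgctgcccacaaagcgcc
Zfp101 (chr17:33394608-33394787, minus strand): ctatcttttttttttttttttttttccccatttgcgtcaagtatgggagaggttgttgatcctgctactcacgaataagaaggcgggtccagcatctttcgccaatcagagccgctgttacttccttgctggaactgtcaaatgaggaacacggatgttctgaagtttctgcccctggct

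Zfp811 held a CArG box, the letters bound by serum response factor, that begins 13 bases from the start inside the transcript. Zfp658 held 1 GC box and Zfp281 held 3 in the bases shown, and Zfp719, Zfp398 and Zfp101 held none of the 7 motifs there. GC boxes were in 77.1% of 35 windows of members higher with LPS in B6 cells and in 42.5% of 127 windows of members lower with LPS. They were in 35.7% of all 32851 windows and in 61.8% of the 12215 windows of genes tested. NF-kB sites were in 5.71% of the windows of higher members and 10.2% of those of lower members, with 10.5% in windows of genes tested and 8.46% over all windows. CArG boxes were in 5.71% of the windows of higher and 0.787% of those of lower members, with 1.22% in windows of genes tested and 1.63% over all. ACTACA was in 14.3% of the windows of higher members and 25.2% of those of lower members, with 10.7% in windows of genes tested and 10.3% over all. AP-1 sites were in 2.86% of the windows of higher members and 3.15% of those of lower members, with 5.3% in windows of genes tested and 7.81% over all windows. cAMP response elements were in 2.86% of the windows of higher members and 4.72% of those of lower members, with 3.04% in windows of genes tested and 1.79% over all windows. ETS sites were in 22.9% of the windows of higher members and 22% of those of lower members, with 18% in windows of genes tested and 8.86% over all windows. A match describes letters only, and no match says nothing of a factor.

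With 5z7 added, many members were higher than with LPS alone. In T169A cells 62 (28.6%) of 217 members were higher with LPS/5z7 than with LPS and 8 (3.69%) were lower, where 6.53% of all genes tested were lower and 6.5% higher, and 7.76% and 7.49% of the 9896 tested genes with at least 3 CPM. In B6 cells 67 (30.9%) were higher and 7 (3.23%) lower, where 6.79% of all genes tested were lower and 7.03% higher, and 8.21% and 8.05% of the 9896 tested genes with at least 3 CPM. The members' median log2 fold change was 0.26 in T169A and 0.31 in B6 cells, and that of all genes tested 0.02 in both. Of the 97 members under 10 CPM, 46.4% were higher in T169A and 45.4% in B6 cells, while 12.8% in T169A and 14.5% in B6 cells of all tested genes of that level were higher. Of the 120 members at 10 CPM or more, 14.2% were higher in T169A and 19.2% in B6 cells, while 6.13% in T169A and 6.42% in B6 cells of all tested genes there were higher. With library size alone, 106 members were higher in T169A and 111 in B6 cells, and 16.7% and 17.9% of all genes tested. With TMM scaling the B6 count was 36 without library 8, 41 without library 5, 42 without library 6 and 44 without library 3. The T169A count was 41 without library 14.

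The 8 largest increases in B6 cells were those of Zfp41, Zfp324, Zfp101, Zfp563, Zfp235, Zfp707, Zfp169 and Zfp398. All 8 lay below 3 CPM in every LPS library of both genotypes, so they passed the limit on the mean through their other groups. Such a limit favours a high value against LPS, so these increases are descriptions. Zfp324, a KRAB member with 9 fingers, had 4.09, 3.28 and 4.17 CPM in T169A LPS/5z7 libraries, against 1.39, 1.34 and 0.97 CPM in T169A LPS libraries. In B6 cells Zfp324 had 3.39, 4.62 and 4.46 CPM with LPS/5z7, against 1.16, 1.58 and 1.32 CPM with LPS. The groups did not overlap, and its log2 fold change was 1.62 ± 0.19 in T169A and 1.6 ± 0.18 in B6 cells (edgeR adjusted p = 1.4e-05 and 1.16e-05). Zfp41 had 3.03, 3.23 and 3.31 CPM in T169A LPS/5z7 libraries, against 1.23, 1.02 and 1.16 CPM in T169A LPS libraries. In B6 cells Zfp41 had 4.34, 4.08 and 3.98 CPM with LPS/5z7, against 1.48, 1.3 and 1.17 CPM with LPS. These libraries did not overlap either, and the log2 fold change of Zfp41 was 1.47 ± 0.23 in T169A and 1.63 ± 0.22 in B6 cells (edgeR adjusted p = 0.00037 and 6.9e-05). The other 6 genes had log2 fold changes of 0.88 to 1.47 in T169A and 1.26 to 1.59 in B6 cells. Of these, Zfp169 was not called in T169A cells (edgeR adjusted p = 0.209), and its B6 call was lost without library 3, 5, 6, 8 or 9. The T169A call of Zfp398 (edgeR adjusted p = 0.013) was lost without library 17 or 18, and its B6 call (adjusted p = 0.0222) without library 3, 5, 8 or 9.

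A small group was lower with LPS/5z7 than with LPS, and its members were also called higher with LPS in both genotypes, in comparisons that share the LPS libraries. They were Zfp558, Zfp658, Zfp703, Zfp281, Zfp719, Zfp811 and Zfp330, and all 7 were among the 8 members lower in T169A cells. Zfp703, of a family of transcriptional corepressors, had 33.8, 34.3 and 32.9 CPM in T169A LPS/5z7 libraries, against 72.8, 76 and 78.8 CPM in T169A LPS libraries. In B6 cells Zfp703 had 35.2, 31.1 and 36.7 CPM with LPS/5z7, against 66.6, 65.9 and 73.4 CPM with LPS. The groups did not overlap, and its log2 fold change was -1.17 ± 0.10 in T169A and -1.0 ± 0.10 in B6 cells (edgeR adjusted p = 5.07e-07 and 3.06e-06). Against unstimulated cells it was not called with LPS/5z7, at -0.09 ± 0.10 in T169A and -0.03 ± 0.10 in B6 cells. Zfp281 had 85.6, 75.1 and 68.3 CPM in T169A LPS/5z7 libraries, against 158, 134 and 114 CPM in T169A LPS libraries. In B6 cells Zfp281 had 68.5, 72.7 and 82.8 CPM with LPS/5z7, against 131, 129 and 123 CPM with LPS. Every LPS/5z7 library lay below every LPS library of its genotype, and the log2 fold change of Zfp281 was -0.83 ± 0.15 in T169A and -0.78 ± 0.15 in B6 cells (edgeR adjusted p = 0.00162 and 0.00256).

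Zfp658 and Zfp719 are KRAB genes and neighbours on chromosome 7, with starts 17.2 kb apart. Zfp658 had 7.57, 6.97 and 6.13 CPM in T169A LPS/5z7 libraries, against 16.7, 17.3 and 16.4 CPM in T169A LPS libraries. In B6 cells Zfp658 had 8.1, 8.46 and 7.25 CPM with LPS/5z7, against 17.5, 16.7 and 16.9 CPM with LPS. Unstimulated cells had 4.68 to 6.38 CPM over both genotypes, below every LPS library. The log2 fold change of Zfp658 with LPS/5z7 was -1.28 ± 0.11 in T169A and -1.1 ± 0.11 in B6 cells (edgeR adjusted p = 5.43e-07 and 2.77e-06). Zfp719 changed by -0.71 ± 0.20 in T169A and -0.68 ± 0.20 in B6 cells (edgeR adjusted p = 0.029 and 0.0334), a call lost in T169A without library 11, 14, 15 or 18 and in B6 cells without library 2, 3, 5, 6 or 9. Zfp558 changed by -1.48 ± 0.21 in T169A and -1.35 ± 0.21 in B6 cells (edgeR adjusted p = 0.00014 and 0.000312). Zfp811 changed by -0.64 ± 0.15 in T169A and -0.55 ± 0.15 in B6 cells (edgeR adjusted p = 0.00825 and 0.0203), and its B6 call was lost without library 2, 3, 6 or 8. Zfp330 changed by -0.29 ± 0.09 in T169A and -0.33 ± 0.09 in B6 cells (edgeR adjusted p = 0.0394 and 0.0213). Its T169A call was lost without library 12, 14, 15, 17 or 18 and its B6 call without library 5 or 6. Its B6 call with LPS was lost without library 1, and with library size alone its LPS change turned to -0.26 in T169A and -0.30 in B6 cells.

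Several members with large LPS changes were not called between LPS/5z7 and LPS. Zfp395 had log2 fold changes of -0.00 ± 0.16 in T169A and -0.36 ± 0.16 in B6 cells, and Zfp652 of 0.28 ± 0.18 in T169A and 0.43 ± 0.18 in B6 cells. Zfp263 had 0.01 ± 0.17 in T169A and -0.04 ± 0.17 in B6 cells, and Zfp800 -0.19 ± 0.21 in T169A and -0.14 ± 0.21 in B6 cells. Zfp131 had -0.32 ± 0.11 in T169A and -0.25 ± 0.11 in B6 cells (edgeR adjusted p = 0.0613 and 0.153). Zfp810, a KRAB member with 10 fingers, was called in T169A cells at 1.11 ± 0.17 (edgeR adjusted p = 0.000309) and not in B6 cells at 0.55 ± 0.17 (adjusted p = 0.0645). The difference between genotypes in the effect of 5z7 was not called for any member.

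The LPS and LPS/5z7 comparisons of 1 genotype share their LPS libraries, so the overlap was taken across genotypes, where no library is shared. Of the 67 members higher with LPS/5z7 in B6 cells, 63 (94%) were lower with LPS in T169A cells, which is 49.6% of the 127 lower there. Over all tested genes with at least 3 CPM, these shares were 78.5% and 21%. The other way round, 57 members were higher with LPS/5z7 in T169A and lower with LPS in B6 cells, 91.9% of 62 and 44.2% of 129, beside 76.9% and 18.2% over all such genes. The 123 members lower with LPS in both genotypes made up 96.9% of those in T169A and 95.3% of those in B6 cells. Over all such genes these shares were 90.6% and 86%. Members also started from larger shares called. With LPS, 58.5% of members were lower in T169A and 59.4% in B6 cells, beside 30.1% and 31.7% of all such genes. With LPS/5z7 against LPS, 28.6% were higher in T169A and 30.9% in B6 cells, beside 7.49% and 8.05%. The larger shares in common therefore do not show a closer link between the comparisons in members than in all genes.

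**Figure D3:**
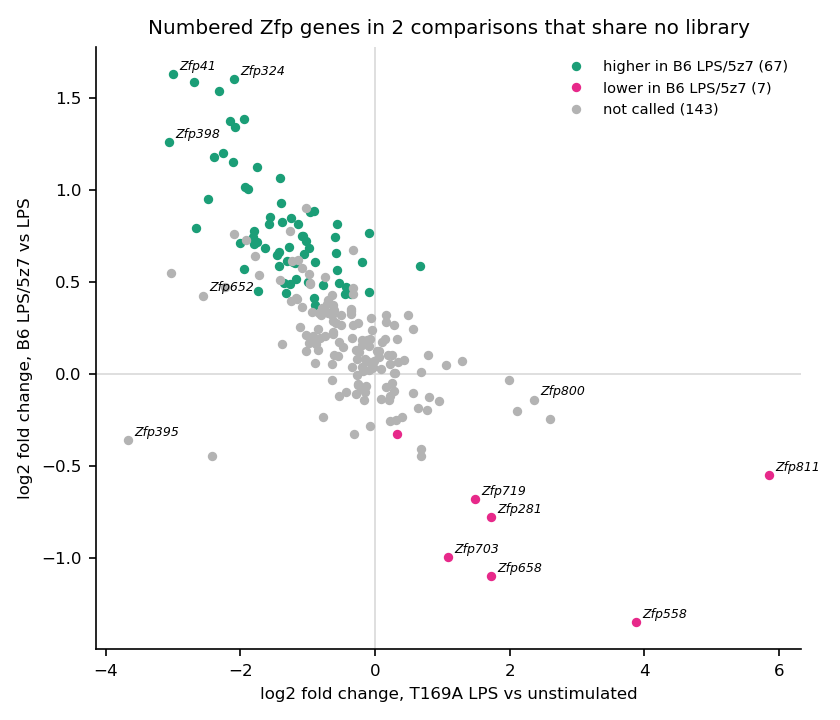
Log2 fold change with LPS/5z7 against LPS in B6 cells (vertical) and with LPS against unstimulated in T169A cells (horizontal) for the 217 numbered Zfp genes, in comparisons that share no library; colours give the calls of the vertical comparison. The 67 genes higher with LPS/5z7 lie mostly at the upper left, 63 of them called lower with LPS in T169A cells, and the 7 lower ones lie at the lower right.

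Against unstimulated cells, LPS/5z7 lowered more members than it raised. In T169A cells 96 (44.2%) were lower and 29 (13.4%) higher, where 27.5% of all genes tested were lower and 28.1% higher, and 26.4% and 31.9% of the 9896 tested genes with at least 3 CPM. In B6 cells 89 (41%) were lower and 35 (16.1%) higher, where 27.9% of all genes tested were lower and 27.6% higher, and 27% and 31% of the 9896 tested genes with at least 3 CPM. Without library 7 the B6 counts were 100 lower and 31 higher. With library size alone, 167 were lower and 15 higher in T169A, and 160 were lower and 15 higher in B6 cells. Of all genes tested, 53.6% were then lower and 15.1% higher in T169A, and 56.1% lower and 15.9% higher in B6 cells. The largest rises in B6 cells were those of Zfp811 (5.21 ± 0.24 in T169A and 4.83 ± 0.23 in B6 cells), Zfp800 (2.17 ± 0.23 in T169A and 2.5 ± 0.23 in B6 cells), Zfp131 (2.28 ± 0.11 in T169A and 2.24 ± 0.11 in B6 cells) and Zfp382 (1.51 ± 0.30 in T169A and 2.12 ± 0.30 in B6 cells). The largest falls were those of Zfp395 (-3.66 ± 0.14 in T169A and -3.94 ± 0.14 in B6 cells), Zfp469 (-2.89 ± 0.32 in T169A and -2.67 ± 0.33 in B6 cells), Zfp810 (-1.91 ± 0.13 in T169A and -2.11 ± 0.14 in B6 cells) and Zfp652 (-2.27 ± 0.18 in T169A and -2.08 ± 0.18 in B6 cells). These are log2 fold changes with their SE, and edgeR called each of the 8 genes in both genotypes.

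By sequence class, KRAB members had the largest shares lowered by LPS and raised with LPS/5z7. With LPS, 65 (71.4%) of 91 KRAB members were lower in T169A and 63 (69.2%) in B6 cells. Of the 91 members with 5 or more fingers and no KRAB match, 47 (51.6%) were lower in T169A and 50 (54.9%) in B6 cells. Of the 30 members with 1 to 4 fingers, 13 (43.3%) were lower in each genotype. Of all tested genes with at least 3 CPM, 30.1% were lower in T169A and 31.7% in B6 cells. With LPS/5z7 against LPS, 37 (40.7%) KRAB members were higher in T169A and 41 (45.1%) in B6 cells. Members with 5 or more fingers and no KRAB match gave 21 (23.1%) in each genotype, and those with 1 to 4 fingers 4 (13.3%). Over all tested genes with at least 3 CPM, 7.49% were higher in T169A and 8.05% in B6 cells.

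**Figure D4:**
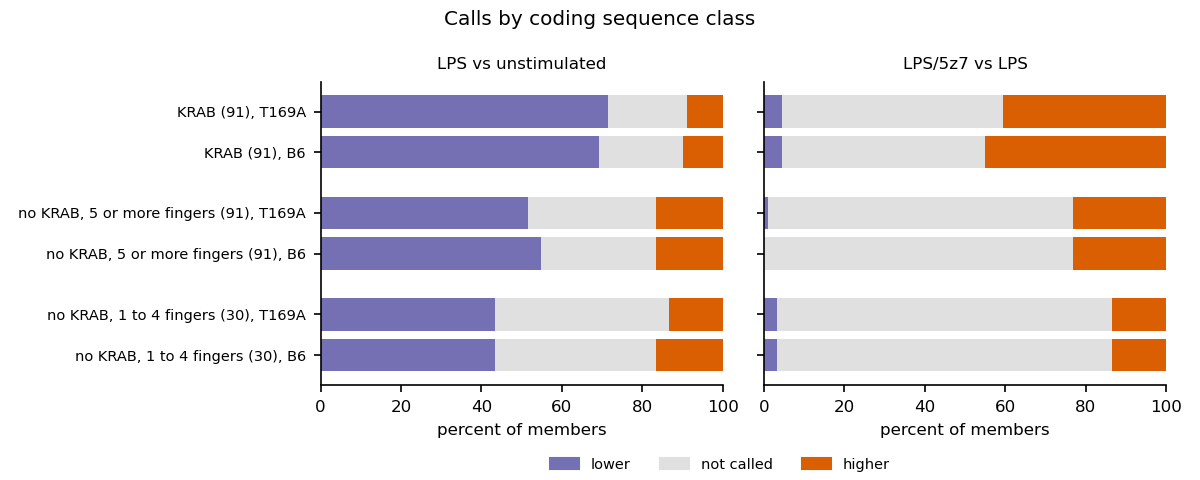
Percent of members (horizontal) called lower (purple), not called (grey) or called higher (orange) in 3 classes of coding sequence, with the number of members in brackets, for T169A and B6 cells. KRAB members have the largest lower share with LPS, 71.4% in T169A and 69.2% in B6 cells, and the largest higher share with LPS/5z7 against LPS, 40.7% in T169A and 45.1% in B6 cells. Of all tested genes with at least 3 CPM, not drawn, 30.1% in T169A and 31.7% in B6 cells were lower with LPS. With LPS/5z7 against LPS, 7.49% of these genes in T169A and 8.05% in B6 cells were higher.

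The classes differed in level, so they were also set side by side within a level band. Under 10 CPM, 76.8% of 56 KRAB members and 74.4% of 39 members with fingers and no KRAB match were lower with LPS in B6 cells. At 10 CPM or more, 57.1% of 35 KRAB members and 41.5% of 82 others were lower. With LPS/5z7 against LPS, 51.8% of the KRAB members and 38.5% of the others under 10 CPM were higher in B6 cells, and 34.3% and 12.2% at 10 CPM or more. The wider KRAB pattern gave 69.9% lower with LPS among 113 matching and 47.6% among 103 other members in B6 cells. The shares of all tested genes in each level band are given above. All these shares are descriptions, and no test of the class itself was made.

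The falls were spread over several Zfp clusters, unevenly. For all genes tested, 31.5% were lower with LPS in T169A and 33.5% in B6 cells. In the 7 clusters with 5 or more members, the median log2 fold change with LPS was below 0 in both genotypes. The chromosome 17 cluster of 13 members had a median of -0.77 in T169A and -0.79 in B6 cells, with 10 members lower in T169A, 11 in B6 cells and none higher. The chromosome 13 cluster of 9 members had medians of -0.79 in T169A and -0.76 in B6 cells, with 7 members lower in each. The chromosome 9 cluster of 5 members had medians of -1.18 in T169A and -1.11 in B6 cells, with 4 members lower in each. A chromosome 7 cluster of 7 members had 5 lower in T169A and 6 in B6 cells, and the chromosome 6 cluster of 6 members had 3 lower in each, with none higher in either cluster. The other chromosome 7 cluster, of 8 members, was mixed: 4 members were lower and 3 higher in T169A, and 3 lower and 3 higher in B6 cells, with medians of -0.26 in T169A and -0.03 in B6 cells beside -0.03 and -0.07 over all genes tested. Single genes departed from their neighbours: Zfp811 rose in a further chromosome 17 cluster of 7 members, with 4 lower and 1 higher in T169A and 4 lower and 2 higher in B6 cells, where Zfp563 changed by -2.32 ± 0.22 in T169A and -2.41 ± 0.22 in B6 cells. Near-identical copies within clusters can share reads, and how such reads were counted is not given in the sources used here.

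**Figure D5:**
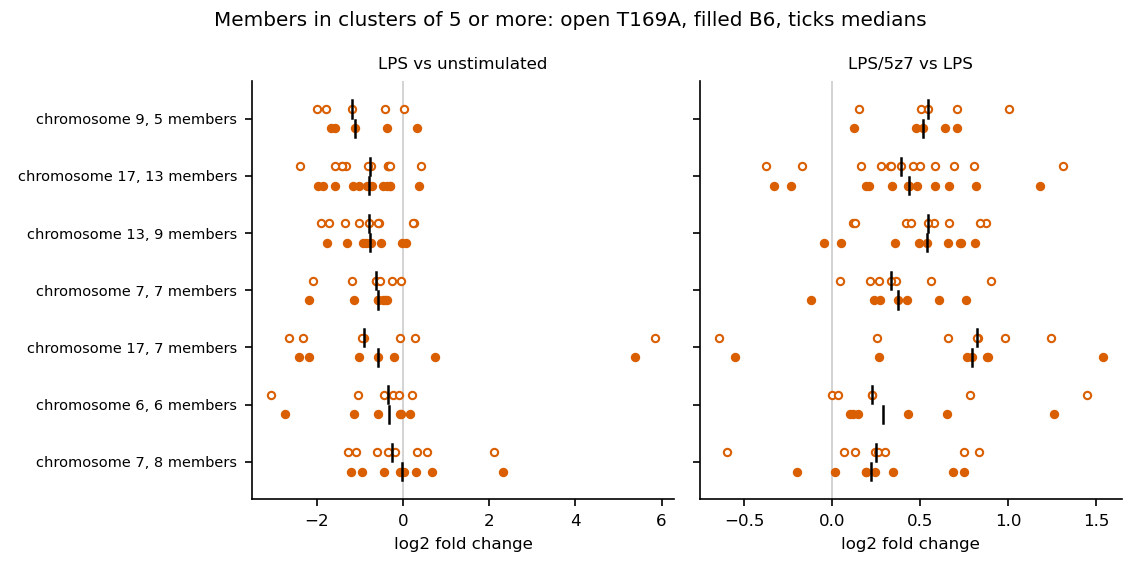
Log2 fold changes (horizontal) of the members in each of the 7 clusters that hold 5 or more of them, for LPS against unstimulated and LPS/5z7 against LPS; open points are T169A, filled points B6 cells, and ticks medians. The LPS median is below 0 in each cluster, and Zfp811 lies far to the right at 5.85 in T169A and 5.38 in B6 cells.

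Members of known and varied function were taken from a set of 30 genes, of which 29 were members and Zfp57, a KRAB protein that guards imprinted regions, was below 3 CPM. Of the 29, 7 (24.1%) were lower and 11 (37.9%) higher with LPS in each genotype, where 30.1% of the tested genes with at least 3 CPM were lower and 34.5% higher in T169A, and 31.7% and 33.4% in B6 cells. The split turned with the scaling: with library size alone 18 were lower and 4 higher in T169A, and 17 lower and 4 higher in B6 cells, beside 62% lower and 14.8% higher of all genes in T169A and 64.9% lower and 15.3% higher in B6 cells. Zfp809, the KRAB protein known for silencing murine leukaemia virus DNA in embryonic cells, changed by -1.37 ± 0.21 in T169A and -1.15 ± 0.21 in B6 cells (edgeR adjusted p = 2.23e-05 and 0.00012). With LPS/5z7 against LPS it changed by 0.48 ± 0.22 in T169A, not called, and 0.83 ± 0.21 in B6 cells (edgeR adjusted p = 0.0152), a call lost without library 6 or 9. Zfp445, which keeps imprints with Zfp57, was not called with LPS, at -0.36 ± 0.16 in T169A and -0.07 ± 0.16 in B6 cells. Zfp568, the KRAB repressor of a placental Igf2 transcript, was called higher, at 0.56 ± 0.20 in T169A and 0.67 ± 0.20 in B6 cells (edgeR adjusted p = 0.0239 and 0.00811). Its T169A call was lost without library 10, 11 or 16, and with library size alone the T169A value was -0.02.

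Members with roles outside the silencing of repeats moved in both directions. Higher calls depend on the scaling. Of the 29 members of known function, 11 were higher with LPS in each genotype with TMM and 4 with library size alone. Zfp598, the ubiquitin ligase that senses collided ribosomes, changed by 0.79 ± 0.12 in T169A and 0.78 ± 0.12 in B6 cells (edgeR adjusted p = 2.95e-05 and 3.38e-05). Zfp217, a partner of histone demethylase complexes, changed by 1.06 ± 0.11 in T169A and 1.23 ± 0.11 in B6 cells (edgeR adjusted p = 3.2e-07 and 4.95e-08). Zfp143, an activator bound at many promoters, changed by 0.64 ± 0.12 in T169A and 0.80 ± 0.12 in B6 cells (edgeR adjusted p = 0.000172 and 1.65e-05). Zfp593, a homologue of a ribosome assembly factor, was called higher in T169A cells at 0.81 ± 0.16 (edgeR adjusted p = 0.000325) and not in B6 cells at 0.33 ± 0.16. Zfp622, another such homologue, was called in neither, at 0.28 ± 0.13 in T169A and -0.13 ± 0.13 in B6 cells. Zfp91, a ubiquitin ligase, changed by -0.44 ± 0.11 in T169A and -0.31 ± 0.11 in B6 cells (edgeR adjusted p = 0.00216 and 0.0202), the B6 call being lost without library 1, 4 or 8. Zfp608 changed by -1.25 ± 0.22 in T169A and -1.14 ± 0.21 in B6 cells and Zfp292 by -1.27 ± 0.30 in T169A and -0.88 ± 0.30 in B6 cells, the B6 call of Zfp292 being lost without library 1, 4 or 8. Zfp410, known for its control of Chd4, was not called, at 0.11 ± 0.09 in T169A and -0.03 ± 0.09 in B6 cells, and its T169A value was -0.47 with library size alone.

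The proteins through which KRAB zinc fingers act were taken from a list of 25 genes. With LPS, 13 (52%) were lower and 7 (28%) higher in T169A, where 31.5% of all genes tested were lower and 30.3% higher. In B6 cells 9 (36%) were lower and 7 (28%) higher, close to the 33.5% and 29.6% of all genes tested. The median log2 fold change of the 25 genes was -0.27 in T169A and -0.13 in B6 cells. The LPS effect differed between genotypes past the threshold for none of them (lowest edgeR adjusted p = 0.916). Under library size alone, 19 were lower and 1 higher in T169A, and 19 lower and 2 higher in B6 cells, beside the shares of all genes given above for that scaling. Atf7ip, which stabilises SETDB1, changed by -2.15 ± 0.15 in T169A and -1.75 ± 0.15 in B6 cells (edgeR adjusted p = 1.36e-09 and 1.57e-08). Dnmt1, the maintenance DNA methyltransferase, changed by -1.37 ± 0.12 in T169A and -1.28 ± 0.12 in B6 cells, and Trim24 by -0.94 ± 0.10 in T169A and -0.94 ± 0.10 in B6 cells (edgeR adjusted p at most 4.33e-07). Trim28 averaged 67.6 ± 2.81 CPM in B6 LPS libraries and 107 ± 4.66 CPM in B6 unstimulated libraries (SD, n = 3 each). Setdb1 averaged 30.5 ± 3.33 CPM in B6 LPS libraries and 57.7 ± 8 CPM in B6 unstimulated libraries. Both were called lower in both genotypes. Resf1, a partner of SETDB1, changed by 2.37 ± 0.20 in T169A and 2.45 ± 0.20 in B6 cells (edgeR adjusted p = 1.41e-08 and 9.38e-09). Chd4 changed by 0.84 ± 0.15 in T169A and 1.04 ± 0.15 in B6 cells and Hdac1 by 0.58 ± 0.08 in T169A and 0.51 ± 0.08 in B6 cells, both subunits of the NuRD complex (edgeR adjusted p at most 0.000107). Hdac1 stood with library size alone at -0.00 in T169A and -0.08 in B6 cells, called in neither, and the T169A call of Chd4 was lost (edgeR adjusted p = 0.106). With LPS/5z7 against LPS, 2 of the 25 (8%) were higher and none lower in each genotype, where 6.5% of all genes tested were higher in T169A and 7.03% in B6 cells. They were Atf7ip, at 0.53 ± 0.15 in T169A and 0.60 ± 0.15 in B6 cells, and the HP1 gene Cbx5, at 0.67 ± 0.18 in T169A and 0.79 ± 0.18 in B6 cells (edgeR adjusted p at most 0.0295).

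No numbered Zfp gene was called between T169A and B6 cells. This held unstimulated, with LPS and with LPS/5z7, by edgeR and by DESeq2. Of all genes tested, edgeR called 0.0765%, 0.0842% and 0.0612% higher in T169A and 0.138%, 0.138% and 0.0995% lower in these 3 conditions, and of those with at least 3 CPM 0.0606%, 0.0707% and 0.0505% higher and 0.172%, 0.172% and 0.121% lower. At an unadjusted p under 0.05, 4, 7 and 3 members differed unstimulated, with LPS and with LPS/5z7 by edgeR, and 4, 7 and 6 by DESeq2. The edgeR shares, 1.84, 3.23 and 1.38%, stood beside 5.31, 5.58 and 5.86% of all genes tested. The DESeq2 shares, 1.84, 3.23 and 2.76%, stood beside 5.37, 5.26 and 5.73%. A fit on the LPS/5z7 libraries alone called 2 members, Zfp871 and Zfp516, with Zfp871 at -0.38 (edgeR adjusted p = 0.0131). These 2 are 0.922% of the members, beside 1.86% of the 11966 genes tested in that fit. At an unadjusted p under 0.05 that fit gave 35 members (16.1%), 31 of them lower in T169A, beside 19.7% of its genes. The effects of LPS, of 5z7 and of LPS/5z7 did not differ between genotypes past the threshold for any member by edgeR or DESeq2, nor for any gene tested by edgeR (0%). At an unadjusted p under 0.05 edgeR gave 7, 1 and 5 members for these 3 differences, and DESeq2 gave 6, 0 and 4. By edgeR these are 3.23, 0.461 and 2.3% of the members, beside 3.22, 1.16 and 3.53% of all genes tested. By DESeq2 they are 2.76, 0 and 1.84%, beside 2.75, 0.872 and 3.34%. Of the 217 members, 205 had the same sign of change with LPS in both genotypes, and none was called in opposite directions. The same counts were not taken over all genes, so they do not set the members apart from other genes.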

How the data were processed

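RNA of 18 macrophage cultures was sequenced from directional libraries, per the labels' protocols. The deposited values are raw counts, not normalized; the submitters' processing notes name GRCm39, featureCounts, STAR and Trim Galore; versions, the strand setting and the handling of reads that match several genes are not given in the sources used here. Antisense, overlapping and near-identical genes are therefore uncertain: exons of 66 members overlap another gene. Count columns carry a running number and were tied to groups. Symbols for 52029 of 56953 IDs (91.4%), exons and coding sequences came from GENCODE M21 (GRCm38).

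Genes were filtered by group (13068 kept), scaled with TMM and fitted with edgeR 4.0.16 in R 4.3.3: 6 group means over 18 libraries, robust quasi-likelihood F-tests for 12 comparisons, Benjamini-Hochberg adjustment over all genes tested, threshold 0.05. Each SE is the size of the log2 change over the root of its F statistic. Tested on simulated data for LPS against unstimulated B6 libraries (13068 genes), the fit found 35.8% of genes with a 1.5-fold change, 73.1% at 2-fold and 90.9% at 4-fold. A floor of 3 counts is 0.0986 to 0.205 CPM, for counting error only.

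Fingers were counted as C2H2 patterns and KRAB boxes by a strict pattern in the longest coding sequence; the wider KRAB pattern was sought in the first 200 residues. Genes named are the 5 most abundant members, the largest called changes whose libraries do not overlap (8 each way for LPS and for LPS/5z7 against LPS in B6 cells, 4 for LPS/5z7 against unstimulated), part of 30 genes of known function, and 3 of 25 KRAB partners each way; Trim28, Setdb1, Cbx5 and Zfp871 with Zfp516 in the fit on the groups alone were chosen after their values were seen. The members and lists were chosen with earlier results of these data known. Alternatives were DESeq2 1.42.0, other scalings and filters, fits on the groups compared alone, a 1.5-fold minimum, other CPM limits and each library left out; TMM without numbered Zfp genes, the wider KRAB pattern, level bands, library size alone for the smaller lists and members without exon overlap were added after the data were seen. Figures were drawn with matplotlib 3.10.9.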

Additional observations from a re-analysis of the deposited data

Results flagged for a closer look

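Zfp287, which has 14 fingers and no KRAB match, differed in direction between T169A and B6 libraries when LPS/5z7 was set against unstimulated cells. It had 3.18, 3.18 and 3.25 CPM in T169A LPS/5z7 libraries, all below the 3.3, 4.44 and 3.3 CPM of T169A unstimulated libraries. In B6 cells it had 4.89, 5.27 and 3.92 CPM with LPS/5z7, all above the 3.92, 2.93 and 1.45 CPM of unstimulated libraries, although the nearest pair differed only beyond the digits given. The log2 fold change was -0.20 ± 0.25 in T169A, not called, and 0.74 ± 0.25 in B6 cells (edgeR adjusted p = 0.0201). The lowest B6 value was that of library 7. The difference between the genotypes, -0.94 ± 0.36 on the log2 scale, was not called (edgeR adjusted p = 0.83). With 3 libraries a group, no outlier test was run on single values.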

How the results depend on the processing

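Leaving out each library in turn gave 24 to 31 higher and 120 to 132 lower members with LPS in T169A, and 28 to 34 higher and 115 to 134 lower in B6 cells. LPS/5z7 against LPS gave 41 to 62 higher and 5 to 8 lower in T169A, and 36 to 51 higher and 4 to 8 lower in B6 cells, with the 4 lower found without library 6 and, in T169A, the 5 lower without library 18. LPS/5z7 against unstimulated gave 26 to 29 higher and 81 to 94 lower in T169A, and 30 to 40 higher and 78 to 100 lower in B6 cells. The comparisons between genotypes and the differences of effects gave 0 members each time. With library size alone, 13 members were higher with LPS in T169A and 14 in B6 cells, 106 were higher with LPS/5z7 than with LPS in T169A, and 111 were higher and 4 lower in B6 cells. Against unstimulated cells, LPS/5z7 then gave 15 higher in each genotype, with 167 lower in T169A and 160 in B6 cells. At 1.5-fold or more, LPS/5z7 against unstimulated gave 18 higher and 62 lower in T169A, and 22 higher and 57 lower in B6 cells. Of the 13068 genes tested, 2414 were then higher and 2543 lower in T169A, and 2509 higher and 2543 lower in B6 cells. The member counts of the other comparisons stayed within 1.5 times of the main fit at this limit. A fit on the LPS/5z7 libraries alone called 2 members between genotypes. The cause of these shifts was not tested. With library size alone the LPS changes of Zfp330 (-0.26), Zfp335 (-0.28), Zfp410 (-0.47), Zfp568 (-0.0238), Zfp592 (-0.26) and Zfp638 (-0.33) reversed in T169A, and those of Zfp207 (-0.49), Zfp318 (-0.53), Zfp330 (-0.30), Zfp335 (-0.13), Zfp592 (-0.0156) and Zfp638 (-0.17) in B6 cells. Of the counts, 249 stayed within 1.5 times and 21 did not, and 20 of 128 calls of named members were lost without some library. The 249 include counts between genotypes and of differences of effects. These were 0 in the main fit, and a limit of 1.5 times says little of them. No paired analysis was possible because the columns carry a running number and no replicate letter.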

Other observations

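Related zinc finger families, which carry BTB or SCAN domains beside their fingers, were also counted. Of 44 Zbtb, Zscan and Zkscan genes with at least 3 CPM, 26 were lower and 10 higher with LPS in T169A, and 24 were lower and 11 higher in B6 cells. These are 59.1% and 22.7% in T169A, where 31.5% of all genes tested were lower and 30.3% higher, and 54.5% and 25% in B6 cells, where 33.5% were lower and 29.6% higher. Their median log2 fold change was -0.71 in T169A and -0.53 in B6 cells. With LPS/5z7 against LPS, 12 were higher and 4 lower in T169A, and 16 were higher and 4 lower in B6 cells. These are 27.3% and 9.09% in T169A, where 6.5% of all genes tested were higher and 6.53% lower, and 36.4% and 9.09% in B6 cells, where 7.03% were higher and 6.79% lower.

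Among the 265 tested numbered Zfp genes with at least 1 CPM, 168 (63.4%) were lower and 30 (11.3%) higher with LPS in T169A, and 168 (63.4%) were lower and 32 (12.1%) higher in B6 cells. Among the 151 members without exon overlap with another gene, 90 (59.6%) were lower with LPS in T169A and 90 (59.6%) in B6 cells. Of all genes tested, 31.5% were lower and 30.3% higher in T169A, and 33.5% lower and 29.6% higher in B6 cells.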
